A study of Homo sapiens with 9 samples.

Results

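Human blood cells that overexpressed the transcription factor GATA2 and were positive for the surface antigen CD90 were compared with blood cells of control genotype that were positive for CD38. All were differentiated from H1, an established human embryonic stem cell line, and their RNA was sequenced as strand-specific paired-end libraries. The comparison takes 6 of the 9 libraries of the study, chosen by labelled genotype and surface marker, with 3 libraries of GATA2 overexpression CD90+ cells and 3 of CD38+ control cells. The other 3 libraries are CD90+ cells of control genotype and appear only where they show how the GATA2-overexpressing cells stand apart from them. Genotype and sorted antigen change together between the groups compared, so their parts in any difference cannot be told apart. The sources used here do not give the vector or promoter that drove GATA2, the day of culture or the number of clones. The labels do not state that replicate libraries are separate cultures, so p-values reflect only how much these libraries vary, in part perhaps technically.

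GATA2 is a zinc finger transcription factor that binds GATA motifs in DNA and is needed for the emergence and upkeep of blood stem cells. It is also used in mast cells, basophils and early megakaryocytes, and its relative GATA1 takes its place at many sites as red cells and megakaryocytes mature. CD90 and CD34 are found on early blood progenitors, while CD38, an enzyme of NAD metabolism, appears as progenitors commit and on many maturing leukocytes.

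Levels are CPM, a gene's counts scaled to a common library total with TMM factors that correct for differences in RNA composition, and are given per library or as mean ± SD with n = 3 in each group. Library totals ran from 37500192 to 39582736 counts with GATA2 overexpression and from 42695005 to 45561088 in CD38+ control cells. Of the 21229 genes, edgeR's quasi-likelihood test was run on 16232 with enough counts. Calls required an adjusted p (Benjamini-Hochberg, over all of these) below 0.05, and fold changes are of GATA2 overexpression CD90+ over CD38+ control cells. Spearman correlations across genes were 0.985 to 0.992 between libraries of a group, 0.914 to 0.915 between the groups compared and 0.954 to 0.956 between GATA2 overexpression and CD90+ control libraries. Genes are not independent replicates, and these correlations are descriptive.

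GATA2 was well expressed in both groups and was lower in the cells labelled as overexpressing it. The gene (ENSG00000179348.11, chr3:128479427-128493185, minus strand, GRCh38) stood at 363, 388 and 377 CPM in the GATA2 overexpression libraries and at 551, 576 and 581 CPM in the CD38+ libraries. Every overexpression library was below every CD38+ library (1.51-fold lower, log2 fold change -0.60, SE 0.029, adjusted p = 3.30e-12). Against CD90+ control cells, which held 86.5, 89.5 and 85.9 CPM, GATA2 overexpression cells were 4.305-fold higher (adjusted p = 1.34e-18), the direction the label gives. Reads of a transgene and of the endogenous gene are not separated in these counts.

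The sorted antigens followed the labels at the RNA level. CD38 (ENSG00000004468.12, chr4:15778275-15853230, plus strand) was at 119, 121 and 124 CPM in CD38+ cells and 2.76, 2.17 and 1.74 CPM with GATA2 overexpression, which was 54.4-fold lower (log2 fold change -5.76, SE 0.091, adjusted p = 6.47e-19). THY1, which encodes CD90 (ENSG00000154096.13, chr11:119417378-119424985, minus strand), had 0 counts in the CD38+ libraries and 3.56, 2.81 and 2.799 CPM with GATA2 overexpression. With a floor of 3 counts for the whole CD38+ group, THY1 was at least 117-fold higher. The THY1 level was low in both CD90+ groups, at 4.43 ± 0.632 CPM in CD90+ controls.

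Other antigens of blood progenitors differed in both directions. Of 30 surface antigens of blood stem and progenitor cells tested, 14 were called higher and 14 lower (median log2 fold change -0.20). Of all genes tested, 43.3% were called higher and 39.9% lower. CD34, an adhesion glycoprotein of progenitors and endothelium (ENSG00000174059.16, chr1:207880972-207911402, minus strand), was at 389.9, 385 and 391 CPM against 13.9, 15.2 and 16.3 CPM (25.6-fold higher, log2 fold change 4.68, SE 0.039, adjusted p = 2.46e-22). It was also 3.18-fold higher than in CD90+ controls (adjusted p = 1.69e-17). PTPRC, the leukocyte antigen CD45, was 7.06-fold lower (36.4 ± 5.09 against 257 ± 32.4 CPM), while SPN, the leukocyte antigen CD43, was 1.51-fold higher (193 ± 1.85 against 128 ± 1.83 CPM). KIT, the receptor for stem cell factor, was 1.34-fold higher (56.5 ± 3.17 against 41.98 ± 1.03 CPM). ITGA2B, the platelet integrin CD41, was 2.09-fold higher, and CXCR4, a receptor that holds progenitors in the marrow, was 17.4-fold lower (14.1 ± 0.569 against 246 ± 2.21 CPM). CD69 and CD99 were not called, with 95% intervals of the log2 fold change of -0.10 to 0.13 and -1.55 to -0.007. CD69 was called without GATA2 overexpression replicate 1 (log2 fold change -0.081), and CD99 without CD38+ replicate 1 or overexpression replicate 3 (-1.18 and -1.23).

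**Figure D1:**
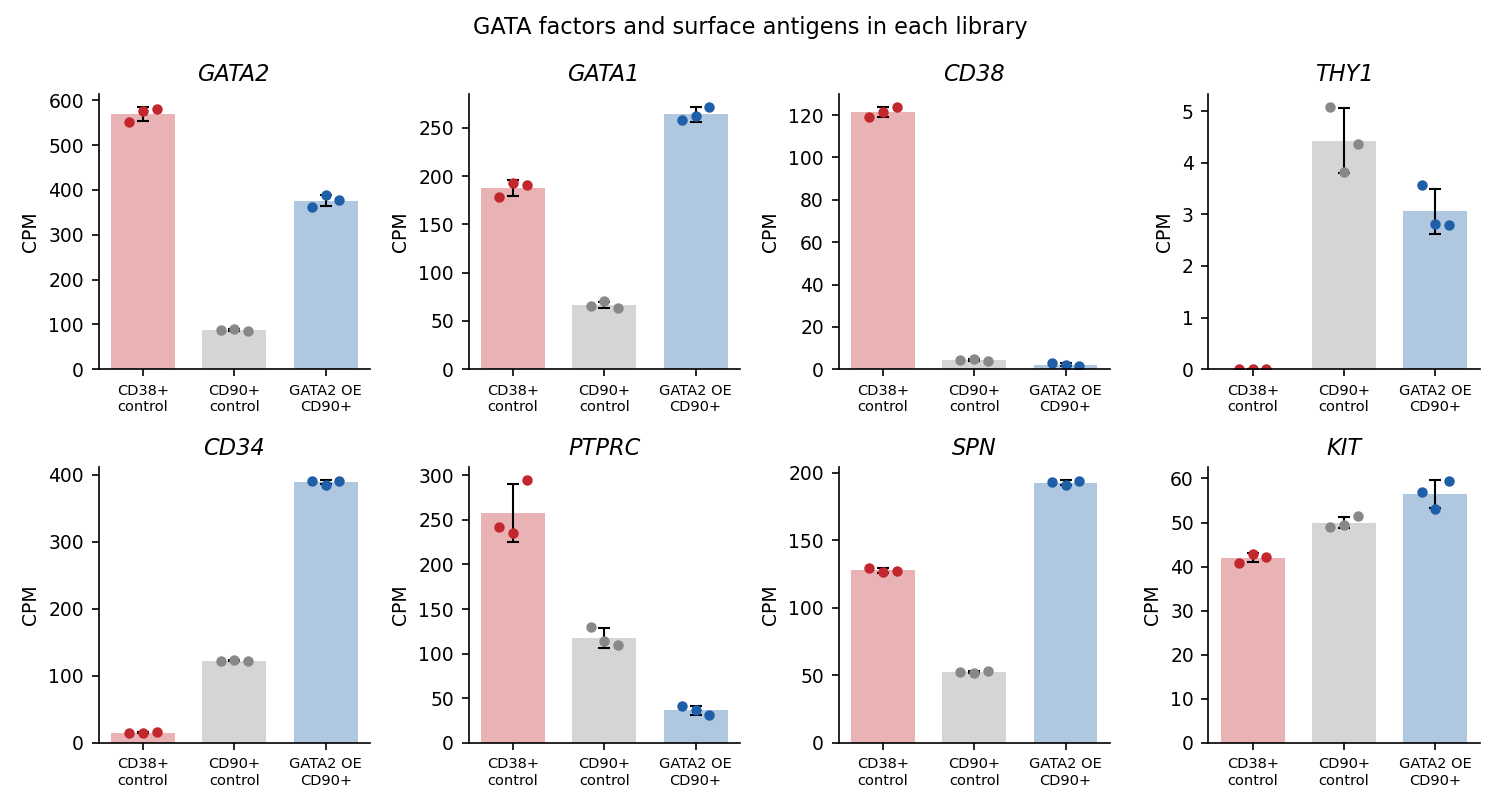
Level in CPM (vertical axes, linear and starting at 0) of 8 genes in the CD38+ control, CD90+ control and GATA2 overexpression (GATA2 OE) CD90+ libraries. Points are libraries, bars are means and error bars are SD with n = 3. GATA2 lies between 87.3 ± 1.93 and 569 ± 16.3 CPM in the overexpressing cells, and CD34 is highest there.

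The difference between the groups covered most of the transcriptome. Of the 16232 genes tested, 13498 were called (83.2%), 7026 higher (43.3%) and 6472 lower (39.9%) in GATA2 overexpression CD90+ cells, and the 3 libraries of each group did not overlap for 13466 genes (83.0%). All genes tested had a median log2 fold change of 0.07, with quartiles of -0.83 and 0.96. Calls of at least 2-fold numbered 7181 (44.2%), of which 3735 were higher (23.0%) and 3446 lower (21.2%). Counts of members below are to be read against these shares, since most genes of any list would be called at this rate. With scaling by library size only, the median of all genes moved by 0.16 on the log2 scale and 58.0% of calls were higher, against 52.1% with TMM factors.

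The genes with the largest rises were at or near 0 in CD38+ cells. GPA33, a surface antigen of the immunoglobulin superfamily (ENSG00000143167.11, chr1:167052836-167166479, minus strand), had 0 counts in CD38+ cells and 9.32, 8.16 and 7.7996 CPM with GATA2 overexpression, at least 324-fold higher by the floor of 3 counts. DOK6, a docking protein for receptor tyrosine kinases, had 0 counts and 7.72, 8.13 and 7.09 CPM, at least 293-fold higher. HAPLN1, a link protein of hyaluronan matrix, had 2 counts over the CD38+ group and 11.2 ± 1.01 CPM, a ratio of 644-fold with a 95% counting interval of 178 to 5320. DEFA4, a neutrophil defensin, had 2 counts and 8.91 ± 0.704 CPM, a ratio of 512-fold (141 to 4235), and NFIB, a nuclear factor I gene, had 2 counts and 5.32 ± 1.14 CPM, a ratio of 307-fold (84.5 to 2537). Each of these genes was higher in all 3 overexpression libraries than in any CD38+ library, which the rule that picked them required.

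Further large rises had a few counts in CD38+ cells. NCR2, the activating receptor NKp44 (ENSG00000096264.13, chr6:41335655-41350887, plus strand), was at 131, 131 and 136 CPM against 0.292, 0.588 and 0.3004 CPM (337-fold higher, log2 fold change 8.40, SE 0.11, adjusted p = 9.39e-20). It was also 12.7-fold higher than in CD90+ controls (10.5 ± 1.01 CPM, adjusted p = 2.26e-17). The glutamate receptor gene GRM3 was 327-fold higher (15.2 ± 0.999 against 0.0428 ± 0.0386 CPM), the cation channel gene TRPC6 296-fold higher (11.2 ± 1.87 against 0.0345 ± 0.0299 CPM) and SLN, the gene of the calcium pump regulator sarcolipin, 276-fold higher (10.4 ± 0.577 against 0.0355 ± 0.0308 CPM). CGB5, a beta subunit gene of chorionic gonadotropin, was 284-fold higher (13.2 ± 0.992 against 0.0444 ± 0.0553 CPM).

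The genes with the largest falls were at or near 0 in GATA2 overexpression CD90+ cells. IL9R, the interleukin 9 receptor, was at 23.3, 41.4 and 27.3 CPM in CD38+ cells and had 0 counts with GATA2 overexpression, at least 1154-fold lower. IL2RA, the alpha chain of the interleukin 2 receptor, was 533-fold lower (0.1502 ± 0.0307 against 81.6 ± 3.47 CPM). CD14, the monocyte receptor for lipopolysaccharide (ENSG00000170458.13, chr5:140631728-140633701, minus strand), was at 335, 341 and 357 CPM against 0.9298, 0.4503 and 1.03 CPM (427-fold lower, log2 fold change -8.74, SE 0.087, adjusted p = 1.76e-21). PRSS33, a serine protease gene of eosinophils, was 431-fold lower (0.193 ± 0.0891 against 85.04 ± 2.14 CPM), and KRT79, a keratin, 377-fold lower (0.222 ± 0.0861 against 84.2 ± 0.539 CPM). FFAR3, a short-chain fatty acid receptor, was 345-fold lower and KLHDC7B 581-fold lower. CXCR1, an interleukin 8 receptor of neutrophils, had 2 counts with overexpression against 6.03 ± 0.798 CPM, a ratio of 341-fold (95% counting interval 94 to 2820). The antisense gene SLC26A4-AS1 had 1 count against 7.21 ± 0.4205 CPM, a ratio of 818-fold (146 to 32330). Whether the authors' counting used strand is not given, so its reads may come from the opposite strand.

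**Figure D2:**
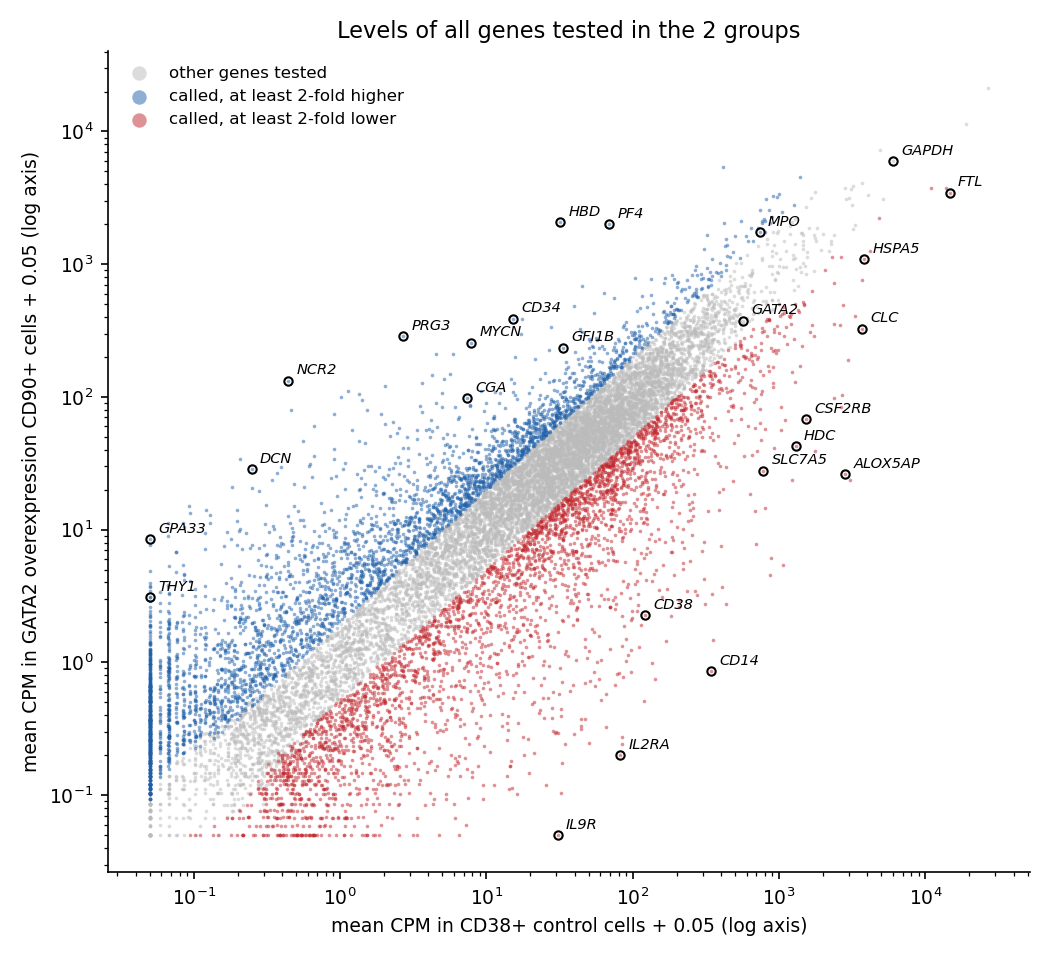
Mean CPM plus 0.05 of each gene tested in CD38+ control cells (horizontal, log axis) and in GATA2 overexpression CD90+ cells (vertical, log axis). Blue points are the 3735 genes called at least 2-fold higher, red points the 3446 called at least 2-fold lower, and named genes are circled.

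GATA1 differed little between the groups beside several regulators it works with. Of 22 GATA factors and partners tested, 15 were called higher and 6 lower, with a median log2 fold change of 0.48. GATA1, the factor of erythroid and megakaryocytic maturation, was at 258, 262 and 272 CPM with GATA2 overexpression and 178, 193 and 191 CPM in CD38+ cells (1.41-fold higher). ERG, an ETS factor of stem cells and endothelium, was at 92.7, 81.7 and 82.8 CPM against 3.22, 3.53 and 3.58 CPM (24.9-fold higher, log2 fold change 4.64, SE 0.072, adjusted p = 5.46e-19). FLI1, its close relative, was 3.12-fold higher (227 ± 4.42 against 72.9 ± 1.83 CPM), MYB, a factor of progenitor growth, 4.41-fold higher (238 ± 4.77 against 53.8 ± 1.23 CPM), and TAL1, a partner of GATA factors, 2.59-fold higher (43.7 ± 2.88 against 16.9 ± 0.956 CPM). ZFPM2, a cofactor that binds GATA proteins, was 4.97-fold higher, whereas its relative ZFPM1 was not called (95% interval -0.36 to 0.44 on the log2 scale).

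The RUNX genes were lower to very different extents. RUNX1, which is needed for blood cell emergence, was 1.32-fold lower (125 ± 2.86 against 166 ± 2.71 CPM). RUNX3 was 10.6-fold lower (11.1 ± 0.429 against 118 ± 5.69 CPM) and RUNX2 30.2-fold lower (1.73 ± 0.0717 against 52.3 ± 3.804 CPM). In CD90+ controls RUNX3 was at 113 ± 1.601 CPM, and the overexpressing cells were 10.2-fold lower than these as well (adjusted p = 6.37e-19).

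Transcription factors of myeloid maturation were mostly lower. Of 22 tested, 18 were lower and 3 higher (median log2 fold change -1.19). BHLHE40, a repressor induced by activation (ENSG00000134107.4, chr3:4979116-4985323, plus strand), was at 13.7, 15.2 and 12.8 CPM against 385, 389.5 and 397 CPM (28.1-fold lower, log2 fold change -4.81, SE 0.045, adjusted p = 8.63e-22). EGR2 was 9.22-fold lower, IRF8, a factor of monocytes and dendritic cells, 4.54-fold lower (24.3 ± 1.54 against 110.5 ± 2.72 CPM), and SPI1, which encodes PU.1, 1.69-fold lower (175 ± 13.6 against 295 ± 5.83 CPM). In the other direction, GFI1B, a repressor needed in erythroid and megakaryocyte precursors, was 7.05-fold higher (235 ± 8.71 against 33.3 ± 0.8497 CPM) and STAT5A 2.66-fold higher. GFI1, the relative of GFI1B in neutrophil precursors, was not called (95% interval -0.23 to 0.025).

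Regulators of stem cells and fetal stages were mostly higher, 22 of 30 tested against 6 lower (median 1.95). MYCN, a MYC family factor (ENSG00000134323.11, chr2:15940564-15947007, plus strand), was at 244, 266 and 259 CPM with GATA2 overexpression and 7.47, 8.15 and 7.83 CPM in CD38+ cells (32.8-fold higher, log2 fold change 5.03, SE 0.045, adjusted p = 5.52e-22). SPINK2, a protease inhibitor gene used as a stem cell marker, was at 79.3, 78.9 and 79.3 CPM against 0.399, 0.561 and 0.275 CPM (192-fold higher). MEIS1, a cofactor of HOX proteins, was 12.7-fold higher (198 ± 7.87 against 15.6 ± 0.357 CPM) and BEX1 11.2-fold higher. BMI1, a Polycomb gene of stem cell upkeep, was 2.01-fold lower (15.4 ± 0.489 against 30.96 ± 1.67 CPM) and IGF2BP2 1.34-fold lower. HOXB4 and PRDM16 were not called, with 95% intervals of -0.52 to 0.10 and -0.86 to 0.59. The list's median against CD90+ controls was 0.64, with 20 of its members called higher and 5 lower, where 38.0% and 39.6% of all genes tested were.

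Genes of the megakaryocyte and of the red cell were mostly higher than in CD38+ cells, together with these regulators. Of 32 megakaryocyte and platelet genes tested, 24 were higher and 5 lower (median 2.16). Their summed level was 7315 to 7538 CPM per library against 2613 to 2654. In CD90+ controls 25 were higher and 5 lower than in CD38+ cells (median 1.89), where 41.1% and 39.3% of all genes tested were. With GATA2 overexpression 19 were higher and 8 lower than in CD90+ controls (median 0.59), where 38.0% and 39.6% of all genes tested were. PF4, the platelet chemokine (ENSG00000163737.3, chr4:73981077-73982124, minus strand), was at 1968, 2027 and 2038 CPM with GATA2 overexpression and 74.5, 67.01 and 65.98 CPM in CD38+ cells (29.1-fold higher, log2 fold change 4.86, SE 0.038, adjusted p = 1.43e-22). GP9, a subunit of the receptor for von Willebrand factor, was 17.3-fold higher (296 ± 9.26 against 17.1 ± 0.707 CPM), and PRKAR2B, a regulatory subunit of protein kinase A, 22.1-fold higher (387 ± 14.2 against 17.5 ± 0.518 CPM). F2R, the thrombin receptor, was 4.18-fold higher. THBS1, the matrix protein thrombospondin, went the other way (12.3-fold lower, 83.7 ± 1.79 against 1033 ± 14.7 CPM), as did F2RL3, a second thrombin receptor (4.53-fold lower). VWF was not called, at 0.571 ± 0.431 against 0.889 ± 0.117 CPM, but was called without GATA2 overexpression replicate 1 (log2 fold change -1.23). In bulk RNA, more or fewer cells of a type and more or less RNA per cell cannot be told apart, here and in the lists that follow.

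All 10 globin genes tested were higher (median 2.23), but the level rested on delta globin. HBD (ENSG00000223609.9, chr11:5232678-5243657, minus strand) was at 2301, 1889.7 and 1998 CPM with GATA2 overexpression, 294, 286 and 294 CPM in CD90+ controls and 33.8, 31.4 and 30.4 CPM in CD38+ cells (64.8-fold higher than in CD38+ cells, log2 fold change 6.02, SE 0.067, adjusted p = 7.26e-21). The overexpression libraries did not overlap with either control. The embryonic zeta globin HBZ was 17.2-fold higher than in CD38+ cells (14.02 ± 0.781 against 0.814 ± 0.212 CPM), the fetal HBG2 3.03-fold higher (32.4 ± 3.67 against 10.7 ± 0.801 CPM) and the alpha globin HBA2 4.05-fold higher (14.2 ± 0.732 against 3.52 ± 0.657 CPM). Against CD90+ controls, 3 of the globin genes were higher and 7 lower, where 38.0% of all genes tested were higher and 39.6% lower. HBZ was at 26.5 ± 0.537 and HBG2 at 45.2 ± 1.33 CPM in those controls. Reads of HBA2 and HBG2 may be shared with their near-identical neighbours.

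Of 31 genes of the red cell membrane and of erythroid regulation, 22 were higher and 6 lower (median 1.96). In CD90+ controls 21 were higher and 7 lower than in CD38+ cells (median 1.22), where 41.1% and 39.3% of all genes tested were. With GATA2 overexpression 15 were higher and 9 lower than in CD90+ controls (median 0.11), where 38.0% and 39.6% of all genes tested were. RHAG, the Rh-associated membrane glycoprotein, was at 113, 104 and 105 CPM against 5.104, 4.598 and 5.01 CPM (21.9-fold higher). CA2, carbonic anhydrase, was 4.56-fold higher (192 ± 2.38 against 42.1 ± 0.871 CPM), PRDX2, a peroxidase abundant in red cells, 3.95-fold higher, and NFE2, a factor of globin and platelet genes, 2.38-fold higher (646 ± 11.2 against 271 ± 6.301 CPM). DMTN, an actin-bundling protein of the red cell skeleton, was 12.5-fold lower (3.24 ± 1.03 against 40.5 ± 0.329 CPM) and EPOR, the erythropoietin receptor, 1.796-fold lower (21.9 ± 1.14 against 39.3 ± 0.864 CPM). BLVRB was not called (95% interval -0.066 to 0.057).

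Heme and iron genes went both ways. Of 24 tested, 12 were higher and 10 lower (median 0.21). UROD and UROS, enzymes of heme synthesis, were 2.94-fold and 1.76-fold higher, ALAS2, the erythroid form of the first enzyme, 2.95-fold higher (20.6 ± 1.18 against 6.97 ± 0.818 CPM), and SLC40A1, the iron exporter ferroportin, 2.31-fold higher. HMOX1, which breaks heme down, was at 31.6, 31.1 and 27.3 CPM against 386, 399 and 402 CPM (13.2-fold lower), and FTL, the light chain of the iron store ferritin, was 4.24-fold lower (3461 ± 83.9 against 14664 ± 233 CPM). The summed level of the list was 5978 to 6163 CPM against 18750 to 19243 CPM, lower although more members were higher. ACO1, an enzyme that senses iron, was not called (95% interval -0.12 to 0.14).

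Genes of mast cells and basophils were lower in the GATA2-overexpressing cells. Of 33 tested, 24 were lower and 8 higher (median -1.78), and their summed level was 3136 to 3201 CPM against 10086 to 10502. HDC, which makes histamine (ENSG00000140287.10, chr15:50241947-50266026, minus strand), was at 41.2, 42.6 and 43.8 CPM with GATA2 overexpression and 1286, 1293 and 1321 CPM in CD38+ cells (30.5-fold lower, log2 fold change -4.93, SE 0.030, adjusted p = 9.19e-24). IL1RL1, the receptor for interleukin 33, was at 2.66, 2.36 and 2.64 CPM against 209, 211 and 204 CPM (81.4-fold lower). The tryptase gene TPSB2 was 41.2-fold lower (2.41 ± 0.0487 against 99.4 ± 1.19 CPM), though its reads may be shared with other tryptase genes. FCER1A, the IgE-binding chain of the high-affinity IgE receptor, went the other way and was at 21.1, 18.5 and 20.6 CPM against 1.38, 1.07 and 0.651 CPM (19.4-fold higher). CNRIP1 was 3.66-fold higher, and LAT was not called. Against CD90+ controls the list was mixed, with 18 members higher and 9 lower (median 0.20), where 38.0% of all genes tested were higher and 39.6% lower.

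Eosinophil granule genes did not move as a block. Of 12 tested, 8 were lower and 3 higher (median -0.97). CLC, the Charcot-Leyden crystal protein (ENSG00000105205.6, chr19:39731250-39738028, minus strand), was at 363, 313 and 306 CPM against 3819.9, 3693 and 3529 CPM (11.2-fold lower, log2 fold change -3.49, SE 0.052, adjusted p = 3.11e-19). PRG3, a relative of the eosinophil major basic protein (ENSG00000156575.2, chr11:57376769-57381150, minus strand), was at 308, 277 and 278 CPM against 2.499, 2.83 and 2.65 CPM (108-fold higher, log2 fold change 6.76, SE 0.060, adjusted p = 4.97e-22). PRG2, the gene of the major basic protein itself, was not called, at 17.1, 15.04 and 17.1 CPM against 14.6, 16.9 and 18.3 CPM (95% interval -0.24 to 0.21). RNASE3, an eosinophil ribonuclease, was 4.46-fold higher (18.3 ± 0.571 against 4.103 ± 0.586 CPM), while SIGLEC8, an inhibitory receptor, was 7.91-fold lower, ADGRE1 25.3-fold lower and PADI4, a histone deiminase, 9.69-fold lower. In CD90+ controls CLC was at 76.6 ± 1.97 CPM and PRG3 at 74.3 ± 0.447 CPM, below the overexpressing cells in both cases (4.27-fold and 3.87-fold, adjusted p = 8.58e-16 and 3.18e-17).

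Enzymes and receptors of leukotrienes and prostaglandins were divided, with 13 of 22 lower and 9 higher (median -1.10). ALOX5AP, which presents arachidonic acid to 5-lipoxygenase (ENSG00000132965.9, chr13:30713478-30764426, plus strand), was at 27.5, 24.3 and 26.6 CPM against 2858, 2835 and 2802 CPM (108-fold lower, log2 fold change -6.76, SE 0.037, adjusted p = 6.15e-24). HPGDS, which makes prostaglandin D2, was 30.01-fold lower (5.38 ± 1.13 against 162 ± 7.98 CPM), and the prostaglandin receptors PTGER2 and PTGER4 were 10.3-fold and 5.27-fold lower. LTA4H, which makes leukotriene B4, was 2.22-fold higher (193 ± 2.198 against 86.8 ± 1.202 CPM) and PTGR1, which inactivates it, 3.59-fold higher.

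Because GATA factors bind many genes of these lineages, the 250 bases before the start of 6 of the genes are shown, from RefSeq on GRCh38.p14, as examples with opposite changes. They were chosen after their matches and values were seen. The starts are those of RefSeq, which can differ from the ends of the GENCODE spans given for genes here. The RefSeq start of HBD lies 9174 bases inside its GENCODE span, that of RHAG 45 and that of CPA3 40, and the other 3 lie within 7 bases of the GENCODE start. HBD, RHAG and PRG3 were higher, and CLC, ALOX5AP and CPA3, a mast cell carboxypeptidase (3.13-fold lower, 25.01 ± 2.36 against 78.3 ± 1.56 CPM), were lower. Sequences run 5′ to 3′ on the gene's strand. Capitals mark GATA words on either strand, which are the letters AGATAA, the same with G as the last letter, and both of these with T as the first letter. On the other strand the word AGATAA reads TTATCT.
HBD (chr11:5234484-5234733, minus strand): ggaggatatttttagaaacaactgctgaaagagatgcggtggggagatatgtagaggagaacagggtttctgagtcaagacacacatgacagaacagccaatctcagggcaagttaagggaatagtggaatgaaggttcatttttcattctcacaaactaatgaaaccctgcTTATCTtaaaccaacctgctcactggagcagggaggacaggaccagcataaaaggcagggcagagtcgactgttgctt
RHAG (chr6:49636840-49637089, minus strand): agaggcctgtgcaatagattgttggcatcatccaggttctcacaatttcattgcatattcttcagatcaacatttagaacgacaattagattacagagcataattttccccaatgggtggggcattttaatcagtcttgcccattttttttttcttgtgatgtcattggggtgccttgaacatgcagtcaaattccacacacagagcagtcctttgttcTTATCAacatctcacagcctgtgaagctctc
PRG3 (chr11:57381151-57381400, minus strand): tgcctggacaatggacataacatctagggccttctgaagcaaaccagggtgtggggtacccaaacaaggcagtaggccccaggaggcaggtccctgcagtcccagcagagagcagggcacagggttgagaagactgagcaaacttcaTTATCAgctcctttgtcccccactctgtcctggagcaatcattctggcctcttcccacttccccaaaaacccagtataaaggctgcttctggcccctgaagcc
CLC (chr19:39738030-39738279, minus strand): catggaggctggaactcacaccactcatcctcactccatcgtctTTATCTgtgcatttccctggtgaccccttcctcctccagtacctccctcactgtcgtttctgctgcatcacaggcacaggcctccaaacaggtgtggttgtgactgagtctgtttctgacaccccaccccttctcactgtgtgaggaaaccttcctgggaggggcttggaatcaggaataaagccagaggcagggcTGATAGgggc
ALOX5AP (chr13:30713235-30713484, plus strand): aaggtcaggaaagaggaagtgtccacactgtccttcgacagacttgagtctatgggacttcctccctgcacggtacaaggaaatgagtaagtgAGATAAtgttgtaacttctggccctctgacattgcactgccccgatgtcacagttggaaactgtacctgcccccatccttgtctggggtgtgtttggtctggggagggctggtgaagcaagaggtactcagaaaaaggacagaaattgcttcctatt
CPA3 (chr3:148865046-148865295, plus strand): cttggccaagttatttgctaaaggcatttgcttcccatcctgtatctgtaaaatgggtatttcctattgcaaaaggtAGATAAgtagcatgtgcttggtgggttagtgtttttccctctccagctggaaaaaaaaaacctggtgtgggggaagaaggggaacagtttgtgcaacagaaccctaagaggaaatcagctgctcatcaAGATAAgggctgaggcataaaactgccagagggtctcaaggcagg

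The first letter of the word lay 78 bases before the start in HBD, 31 in RHAG and 103 in PRG3. In CLC words began 206 and 10 bases before it, in ALOX5AP 157 and in CPA3 173 and 45. Genes with several RefSeq windows were left out. Of the 22114 RefSeq windows kept, 5235 (23.7%) hold such a word, so a match is common. Genes of both directions carried matches here, and a match is a description and not a site of binding. Only 8791 of the 16232 genes tested (54.2%) had a window that was kept. These genes need not be like the rest, so sets of genes were not compared.

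Cytokine receptors were mostly lower. Of 28 tested, 20 were lower and 6 higher (median -2.30). CSF2RB, the chain shared by the receptors for interleukin 3, interleukin 5 and GM-CSF (ENSG00000100368.13, chr22:36913628-36940449, plus strand), was at 65.97, 65.8 and 71.2 CPM against 1480.3, 1548 and 1561 CPM (22.6-fold lower, log2 fold change -4.50, SE 0.036, adjusted p = 1.49e-22). IL2RB, a chain of the interleukin 2 and 15 receptors, was 118-fold lower (0.723 ± 0.229 against 86.1 ± 2.99 CPM). IL10RA was 20.9-fold lower (7.98 ± 0.529 against 166 ± 4.77 CPM) and, from 183 ± 3.005 CPM in CD90+ controls, also 22.97-fold lower than in those (adjusted p = 6.74e-21). LIFR was 11.2-fold higher (4.42 ± 0.659 against 0.396 ± 0.208 CPM). TNFRSF1A, a receptor for tumour necrosis factor, was at 229.6 ± 6.86 against 227 ± 8.45 CPM and was not called (95% interval -0.046 to 0.080).

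The cytokines and chemokines themselves were lower in 25 of 30 cases and higher in 2 (median -3.37). CCL2, a chemokine that draws monocytes (ENSG00000108691.9, chr17:34255218-34257203, plus strand), was at 5.42, 5.27 and 5.33 CPM against 1143, 1066 and 966 CPM (198-fold lower, log2 fold change -7.63, SE 0.071, adjusted p = 7.72e-22). CSF1, the macrophage growth factor, was 9.09-fold lower (13.5 ± 0.544 against 123 ± 1.48 CPM), TNFSF10, the death ligand TRAIL, 10.1-fold lower, and IL32 31.98-fold lower. CXCL2, a chemokine for neutrophils, was 2.74-fold higher (139.5 ± 2.55 against 50.98 ± 1.39 CPM) and IL18 1.31-fold higher. CXCL3, a close relative of CXCL2, was not called (95% interval -0.021 to 0.14), except without CD38+ replicate 2 (log2 fold change 0.093) and under other scalings.

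Neutrophil genes were mostly lower, with the enzyme of early granules among the exceptions. Of 30 tested, 20 were lower and 7 higher (median -2.17). MPO, the myeloperoxidase of early granules (ENSG00000005381.7, chr17:58269856-58280935, minus strand), was at 1846, 1663 and 1728 CPM against 705, 739.8 and 766 CPM (2.37-fold higher, log2 fold change 1.24, SE 0.036, adjusted p = 1.97e-15). S100A8 and S100A9, the calprotectin subunits of mature phagocytes, were lower, S100A9 at 86.6, 82.9 and 83.5 CPM against 2683, 2642 and 2608 CPM (31.4-fold) and S100A8 at 38.8 ± 2.196 against 1764 ± 118 CPM (45.5-fold). The NADPH oxidase genes CYBB and NCF1 were 28.005-fold and 78.3-fold lower (9.02 ± 0.375 against 253 ± 4.52 CPM and 3.39 ± 0.487 against 265 ± 8.196 CPM), with reads of NCF1 possibly shared with its pseudogenes. LCN2, an iron-binding granule protein, was 12.4-fold higher (6.39 ± 0.403 against 0.517 ± 0.229 CPM). SERPINB1, an inhibitor of neutrophil proteases, and MS4A3, a marker of early granulocyte progenitors, were not called, at 379.7 ± 3.12 against 370.04 ± 7.65 CPM and 191 ± 8.01 against 197 ± 6.53 CPM (95% intervals -0.011 to 0.086 and -0.13 to 0.034). In CD90+ controls MS4A3 was at 24.3 ± 1.46 CPM, 7.85-fold below the overexpressing cells (adjusted p = 1.16e-18).

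Monocyte and macrophage genes were lower almost throughout, 34 of 37 tested and 0 higher (median -3.59), and their summed level was 1898 to 1952 CPM against 12581 to 12761. SPP1, the secreted matrix protein osteopontin (ENSG00000118785.13, chr4:87975650-87983426, plus strand), was at 22.5, 24.8 and 23.5 CPM against 3045, 3014 and 3026 CPM (128-fold lower, log2 fold change -7.00, SE 0.035, adjusted p = 2.39e-24). VSIG4, a complement receptor of resident macrophages, was at 1.65, 1.17 and 1.47 CPM against 349.6, 354 and 361 CPM (248-fold lower), and VCAN, the proteoglycan versican, was 83.6-fold lower (2.18 ± 0.191 against 183 ± 0.594 CPM). AIF1 and LYVE1 were not called, at 16.99 ± 5.55 against 22.1 ± 6.39 CPM and 5.05 ± 0.887 against 5.22 ± 0.442 CPM. Without GATA2 overexpression replicate 3, AIF1 was called (log2 fold change -0.66). LYVE1 stood at 75.3 ± 1.403 CPM in CD90+ controls. Against those controls 35 members were lower and 1 higher, where 39.6% of all genes tested were lower. C1QA, a complement gene of macrophages named outside the rule, was at 153, 149.7 and 149 CPM in CD90+ controls, 9.65, 9.17 and 9.69 CPM in CD38+ cells and 0.723, 0.477 and 0.761 CPM with GATA2 overexpression.

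**Figure D3:**
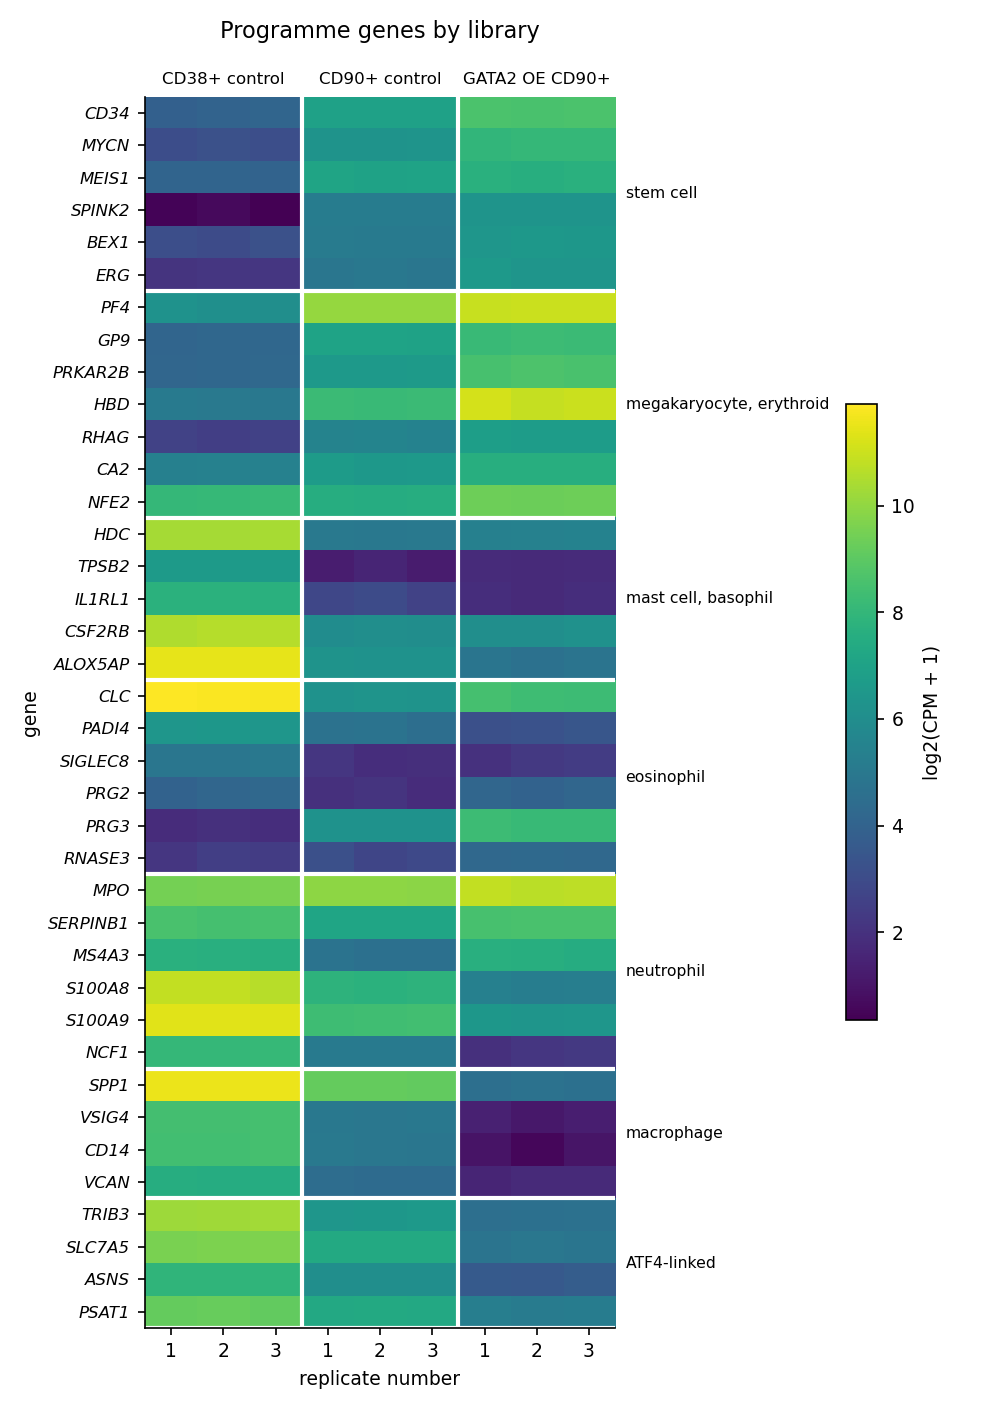
Level as log2(CPM + 1) (colour) of 38 genes (rows) in the 3 libraries of each group (columns). CLC, HDC, ALOX5AP and SPP1 are bright in the CD38+ columns, PF4, HBD and MPO in the GATA2 overexpression (GATA2 OE) columns, and libraries of a group look alike.

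MHC class II genes were divided. Of 14 tested, 3 were higher, 5 lower and 6 not called, and the median (-0.13) changed sign with the scaling. It was also positive without GATA2 overexpression replicate 3 (0.015). HLA-DRB1 was at 2.08 ± 0.0307 against 1.91 ± 0.618 CPM and was not called, against 41.5 ± 1.68 CPM in CD90+ controls. CD74, the invariant chain, was 1.34-fold lower (118 ± 3.28 against 158 ± 5.497 CPM) and stood at 933 ± 5.05 CPM in CD90+ controls. IFI30, a thiol reductase of antigen processing, was 42.4-fold lower (0.147 ± 0.2098 against 6.47 ± 0.477 CPM), and CTSS, a cathepsin that processes the invariant chain, 1.24-fold lower. CIITA, the class II master regulator, and HLA-DPB1 were higher from very low levels (0.307 ± 0.169 against 0.0523 ± 0.0535 CPM and 1.12 ± 0.635 against 0.112 ± 0.0354 CPM). Reads of HLA genes may be shared within the family.

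Of 19 genes of MHC class I and peptide loading, 13 were lower and 1 higher (median -0.68). HLA-B was 2.4001-fold lower (174 ± 9.18 against 418 ± 12.99 CPM), ERAP1, which trims peptides, 3.33-fold lower, PSMB10, an immunoproteasome subunit, 3.41-fold lower and TAPBPL 5.396-fold lower. CALR, the chaperone calreticulin, was 1.96-fold higher (311 ± 5.799 against 159 ± 5.99 CPM). HLA-E was not called (95% interval -0.56 to 0.69), except without GATA2 overexpression replicate 3 (log2 fold change -0.65).

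Interferon-stimulated genes were mixed, 20 of 34 lower and 13 higher (median -0.62). IRF1, a regulator of the response, was 4.21-fold lower (42.1 ± 1.21 against 177 ± 2.79 CPM), and TRIM22 and IFI35 were 5.47-fold and 4.21-fold lower. IFITM3, a membrane protein that blocks viral entry, was at 1369, 1326 and 1393 CPM against 427, 430.04 and 418 CPM (3.21-fold higher), and IFI6 was 2.72-fold higher (435 ± 1.73 against 160.1 ± 5.12 CPM). The summed level of the list was higher with GATA2 overexpression (4069 to 4223 against 3087 to 3099 CPM) although more members were lower.

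Genes of lymphoid and cytotoxic cells were lower in 20 of 30 cases and higher in 8 (median -1.44). CD3D, a chain of the T cell receptor complex, was 46.04-fold lower (2.12 ± 0.334 against 98.1 ± 4.898 CPM), PRF1, the pore-forming perforin, 258-fold lower (0.461 ± 0.235 against 119 ± 3.49 CPM), NKG7 4.89-fold lower and TRDC, the constant region of the delta T cell receptor, 7.01-fold lower. CD79B, a chain of the B cell receptor complex, was 2.78-fold higher (53.8 ± 1.69 against 19.4 ± 1.253 CPM), beside NCR2 above.

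Integrins and homing receptors were mostly lower, 22 of 32 against 9 higher (median -1.20). ITGB7, the beta chain of gut-homing integrins, was at 2.04, 3.21 and 2.85 CPM against 297, 307 and 331 CPM (116-fold lower), ITGAM, the myeloid integrin CD11b, was 70.8-fold lower (2.901 ± 0.284 against 206 ± 6.74 CPM) and ITGB2, its partner, 7.21-fold lower (126 ± 2.67 against 911 ± 31.2 CPM). ITGB3, the platelet integrin chain, was 8.45-fold higher (23.8 ± 1.69 against 2.81 ± 0.732 CPM) and the junction protein gene JAM3 2.83-fold higher.

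Endothelial genes were mostly higher. Of 30 tested, 24 were higher and 3 lower (median 1.56). KDR, a receptor for VEGF (ENSG00000128052.9, chr4:55078259-55125595, minus strand), was at 29.9, 28.2 and 29.8 CPM against 2.37, 2.27 and 2.103 CPM (13.04-fold higher), and TEK, the angiopoietin receptor, at 33.03, 28.7 and 31.7 CPM against 0.558, 0.748 and 0.401 CPM (54.8-fold higher). ICAM2 was 6.16-fold higher (69.2 ± 1.251 against 11.2 ± 0.183 CPM). ENG, a coreceptor for TGF-beta, was 2.15-fold lower (72.7 ± 2.66 against 157 ± 6.5002 CPM) and CD93 4.75-fold lower, and NOS3 was not called, except without GATA2 overexpression replicate 1 (log2 fold change 0.61). Many of these genes are also used by blood progenitors, and against CD90+ controls 13 were higher and 14 lower, where 38.0% of all genes tested were higher and 39.6% lower.

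Notch and arterial genes were divided, 11 of 24 higher and 10 lower (median 0.16). The median turned negative (-0.12) without GATA2 overexpression replicate 3. HES1, a target of Notch signalling, was 6.67-fold higher (50.8 ± 3.14 against 7.61 ± 0.785 CPM), GJA4, an arterial connexin, 46.95-fold higher (40.6 ± 2.36 against 0.862 ± 0.139 CPM), DLL3, a Notch ligand, 31.9-fold higher and MFNG, an enzyme that glycosylates Notch, 1.52-fold higher. NRP1, a coreceptor for VEGF and semaphorins, was 27.4-fold lower (6.74 ± 1.03 against 185 ± 2.56 CPM). NOTCH3 was not called (95% interval -0.38 to 0.013), except without GATA2 overexpression replicate 3 (log2 fold change -0.24).

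Among genes of TGF-beta, Wnt and JAK-STAT signalling, RNA levels differed between the groups in both directions. Of 29 TGF-beta and BMP genes tested, 13 were higher and 14 lower, and the median (-0.11) changed sign with the scaling. It was also positive without CD38+ replicate 1 (0.093) or GATA2 overexpression replicate 3 (0.022). The receptors TGFBR1, TGFBR2 and TGFBR3 were 5.21-fold, 5.95-fold and 18.4-fold lower, with TGFBR2 at 44.3 ± 0.665 against 264 ± 0.976 CPM. ID1, a target of BMP signalling, was 2.84-fold higher (314 ± 18.5 against 110.4 ± 1.99 CPM) and LTBP1, which holds latent TGF-beta in the matrix, 6.004-fold higher. Of 29 Wnt genes, 17 were higher and 7 lower (median 1.07). The list's summed level was lower, at 313 to 330 against 377 to 391 CPM. Against CD90+ controls 4 members were higher and 20 lower, where 38.0% of all genes tested were higher and 39.6% lower. LEF1, a nuclear effector, was 5.1996-fold higher than in CD38+ cells (43.96 ± 1.19 against 8.45 ± 0.747 CPM). DKK1, a secreted inhibitor, was 137-fold higher than in CD38+ cells (11.2 ± 0.807 against 0.0791 ± 0.0969 CPM). CTNNB1, which encodes beta-catenin, was 2.004-fold lower and the receptor gene LRP5 2.28-fold lower.

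Of 24 JAK-STAT and feedback genes, 21 were lower and 2 higher (median -0.97). PIM1, a kinase induced by cytokines, was at 42.5, 46.6 and 46.5 CPM against 489, 489 and 497 CPM (10.9-fold lower), PIM2 was 5.75-fold lower and the feedback inhibitors SOCS1 and SOCS3 were 13.6-fold and 5.02-fold lower. SOCS5 was 2.12-fold higher, and JAK2 was not called (95% interval -0.17 to 0.081). NF-kB and inflammatory genes were lower in 20 of 24 cases and higher in 4 (median -1.45). PLAUR, the urokinase receptor, was 11.5-fold lower (64.1 ± 2.405 against 735 ± 2.503 CPM) and BIRC3, an inhibitor of cell death, 26.8-fold lower (3.84 ± 0.385 against 103 ± 3.26 CPM). REL, a subunit of NF-kB, was 1.89-fold higher and its inhibitor NFKBIA 1.17-fold higher.

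Immediate early genes, which answer stimuli within minutes, went both ways, 11 of 33 higher and 22 lower (median -0.89). FOS, a subunit of AP-1 (ENSG00000170345.9, chr14:75278774-75282230, plus strand), was at 5352, 5371 and 5486 CPM against 403, 415 and 420.03 CPM (13.1-fold higher, log2 fold change 3.71, SE 0.027, adjusted p = 5.25e-23) and EGR1 was 4.73-fold higher (784 ± 13.3 against 166 ± 0.267 CPM). In CD90+ controls they were at 4664 ± 36.2 and 604 ± 2.902 CPM. ATF3 was 7.45-fold lower (47.3 ± 2.74 against 353 ± 8.87 CPM) and DUSP6, a phosphatase of ERK, 4.14-fold lower (220.4 ± 7.46 against 913 ± 9.798 CPM).

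Stress programmes linked to ATF4 and the unfolded protein response were lower. All 25 ATF4-linked genes tested were lower (median -1.89), at a summed level of 3083 to 3136 CPM against 9682 to 9944, and 22 were also lower than in CD90+ controls, where 39.6% of all genes tested were. TRIB3, a pseudokinase (ENSG00000101255.10, chr20:362835-397559, plus strand), was at 22.7, 23.6 and 24.6 CPM against 1186, 1227 and 1270.3 CPM (52.04-fold lower, log2 fold change -5.70, SE 0.046, adjusted p = 1.88e-22). SLC7A5, a transporter of large amino acids, was at 26.6, 29.1 and 27.8 CPM against 762, 780.4 and 799 CPM (28.03-fold lower). ASNS, which makes asparagine, was 20.5-fold lower (11.6 ± 0.748 against 239 ± 1.17 CPM) and PSAT1, an enzyme of serine synthesis, 15.8-fold lower (36.1 ± 1.54 against 572 ± 12.2 CPM). ATF4 itself, named outside the rule, was 1.17-fold lower (958 ± 24.02 against 1118 ± 5.82 CPM), and its control is known to be largely at translation.

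Of 26 genes of the unfolded protein response and of folding in the endoplasmic reticulum, 21 were lower and 4 higher (median -0.72). HSPA5, the chaperone BiP, was at 1085, 1102 and 1081 CPM against 3808, 3759 and 3861 CPM (3.496-fold lower), EDEM1, which passes misfolded proteins to degradation, was 10.05-fold lower (22.04 ± 0.728 against 222 ± 2.83 CPM), and HERPUD1 and DNAJB9 were both 4.13-fold lower. PDIA6 was 1.13-fold higher, beside CALR above, and PDIA4 was not called (95% interval -0.037 to 0.072). Against CD90+ controls 17 members were higher and 6 lower, where 38.0% of all genes tested were higher and 39.6% lower.

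Heat shock genes were mostly higher, 12 of 19 against 5 lower (median 0.53). HSPB1 was 4.42-fold higher (584 ± 9.61 against 132 ± 1.66 CPM). HSPD1, HSPE1 and HSP90AB1 were 2.91-fold, 3.26-fold and 2.64-fold higher, and HSPA8 was 1.53-fold lower. Compared with CD90+ controls 7 members were higher and 11 lower (median -0.3), where 38.0% of all genes tested were higher and 39.6% lower.

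Genes of protein synthesis and DNA replication were higher. Of 79 cytosolic ribosomal protein genes tested, 76 were higher and 2 lower (median 1.18), and their summed level was 81783 to 82926 CPM against 32856 to 35064 in CD38+ cells and 41792 to 42460 in CD90+ controls. RPS3 was at 3251, 3227 and 3274 CPM against 918, 913 and 886 CPM (3.59-fold higher), RPL7A 3.57-fold higher and RPL4 3.25-fold higher. RPS10 was 1.73-fold lower at few counts (2.16 ± 0.0307 against 3.75 ± 0.589 CPM), and RPL17 was not called. Reads of these genes may be shared with pseudogenes.

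Of 43 genes of G1/S and DNA replication, 34 were higher and 5 lower (median 0.57), though 3 of them reached 2-fold higher. UNG, which removes uracil from DNA, was 3.19-fold higher (239.5 ± 3.69 against 74.97 ± 0.7297 CPM), MCM7, a helicase subunit, 1.88-fold higher (564 ± 3.504 against 300.5 ± 8.94 CPM), PRIM1 2.28-fold higher and DUT 1.89-fold higher. TK1, thymidine kinase, was 2.27-fold lower (146 ± 3.73 against 331 ± 8.81 CPM) and PCNA 1.18-fold lower (327 ± 4.43 against 386 ± 3.32 CPM). RFC4 was not called (95% interval -0.14 to 0.049), except without GATA2 overexpression replicate 2 (log2 fold change -0.10) and under other scalings.

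Mitotic genes were evenly split, 22 of 48 higher and 21 lower (median 0.082). The kinase gene AURKB was 2.87-fold higher (293 ± 3.08 against 102 ± 4.36 CPM), UBE2C, which drives exit from mitosis, 2.15-fold higher (869 ± 6.601 against 403 ± 10.02 CPM), and MAD2L1 and CDC20 2.55-fold and 1.73-fold higher. MKI67, the proliferation antigen Ki-67, was at 98.8, 96.5 and 96.4 CPM against 212, 211 and 211 CPM (2.17-fold lower) and CENPF 1.71-fold lower. Against CD90+ controls 42 of the same genes were higher and 5 lower, where 38.0% of all genes tested were higher and 39.6% lower. Of 17 cyclins, cyclin-dependent kinases and their inhibitors, 4 were higher and 10 lower, with CDK4 and CDK6 3.17-fold and 1.88-fold higher and CCND2 and CCND3 2.904-fold and 2.21-fold lower. CDKN1A, the cell cycle inhibitor p21 (ENSG00000124762.13, chr6:36676460-36687339, plus strand), was at 129, 128 and 130.01 CPM against 1255, 1300.2 and 1323 CPM (10.03-fold lower, log2 fold change -3.33, SE 0.026, adjusted p = 1.43e-22).

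Most nuclear genes of the respiratory chain and most genes of cholesterol and fatty acid synthesis were higher. Of 41 nuclear genes of the respiratory chain, 36 were higher and 2 lower (median 0.52), 5 of them at least 2-fold higher, with COX7C 2.22-fold higher (762 ± 0.284 against 343 ± 20.3 CPM) and UQCRFS1 1.84-fold higher. The 13 mitochondrially encoded genes were split 7 to 6 (median 0.12), with MT-CO1 1.996-fold higher (3521 ± 146 against 1764 ± 57.3 CPM) and MT-ND1 1.63-fold lower. Among 30 glycolysis and hypoxia genes 17 were higher and 11 lower (median 0.17). LDHB was 3.39-fold higher (3390.2 ± 5.78 against 1000 ± 10.3 CPM) and BNIP3, a mitophagy receptor, 4.02-fold higher, while the glucose transporter SLC2A3 was 5.87-fold lower (244 ± 31.5 against 1429.9 ± 12.1 CPM) and VEGFA 3.46-fold lower. GAPDH was at 5948 ± 96.003 against 6029 ± 83.8 CPM and was not called (95% interval -0.069 to 0.030). Of 33 genes of cholesterol and fatty acid synthesis, 24 were higher and 4 lower (median 0.65), 13 of them at least 2-fold higher, with FADS1 and FADS2 2.26-fold and 3.05-fold higher and FDFT1 2.7003-fold higher.

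Most tested markers of tissues other than blood were called higher in the GATA2-overexpressing cells than in CD38+ cells. Genes near 0 in CD38+ cells that were tested through their counts in another group could hardly be called lower. The same holds for such genes in other lists, and their number was not tested. Of 32 mesenchymal and matrix genes 24 were higher and 6 lower (median 2.34). Of 26 cardiac and smooth muscle genes 20 were higher and 4 lower (median 3.99). Of 27 hepatic and yolk sac endoderm genes 20 were higher and 5 lower (median 2.93). Of 23 epithelial genes 15 were higher and 5 lower (median 1.99), and of 16 neural genes 11 and 2 (median 2.17). In a fit of the 6 libraries alone these medians were 2.34, 3.98, 3.88, 1.99 and 1.52. The collagen gene COL3A1 was at 80.1, 80.3 and 79.7 CPM against 1.36, 1.63 and 1.48 CPM (53.7-fold higher), and in CD90+ controls it was at 402, 397 and 397 CPM. COL1A1, DCN, a matrix proteoglycan, and LOX, which crosslinks collagen, were 39.6-fold, 141-fold and 17.002-fold higher. The atrial myosin chain MYL4 was 85.8-fold higher (74.1 ± 2.72 against 0.864 ± 0.155 CPM) and the cardiac actin ACTC1 79.6-fold higher (23.8 ± 1.99 against 0.293 ± 0.0966 CPM). The plasma protein genes APOA1, TTR and AFP were 30.8-fold, 28.6-fold and 32.7-fold higher, with AFP at 10.1 ± 0.962 against 0.305 ± 0.0676 CPM, and the neuronal vesicle gene SNAP25 was 76.1-fold higher (11.5 ± 1.14 against 0.148 ± 0.0338 CPM).

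Most tested members of these lists were lower than in CD90+ controls. Counts in CD90+ controls helped decide which genes were tested, and 16232 were, against 14987 with those libraries left out. Genes that passed only through their counts in CD90+ controls tend to add to the members called lower. How many such members each list holds was not tested, here or for other lists compared with CD90+ controls. Members called lower against CD90+ controls numbered 28 of the mesenchymal, 20 of the cardiac, 21 of the hepatic, 19 of the epithelial and 12 of the neural genes, of 32, 26, 27, 23 and 16 tested, where 39.6% of all genes were lower. The summed level per library of the hepatic list was 149.5 to 164 CPM with GATA2 overexpression, 389 to 393 in CD90+ controls and 33.8 to 36.5 in CD38+ cells. For the cardiac list it was 289 to 294, 372 to 379 and 136 to 143 CPM. For the neural list it was 34.02 to 35.8, 93.4 to 96.97 and 11.4 to 13.1 CPM. For the mesenchymal list it was 1513 to 1573, 2751 to 2784 and 1395 to 1435 CPM. For the epithelial list it was 878 to 894, 1155 to 1173 and 797 to 820 CPM. The mesenchymal and epithelial sums with GATA2 overexpression were thus only a little above those in CD38+ cells, although most members were higher. TWIST1, PRRX1, TBX20, PAX6 and TUBB3, regulators and markers of such tissues, were not called and were each under 2 CPM on average in both groups. The part of such cells in the other differences was not tested.

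Pluripotency genes were higher in 14 of 17 cases and lower in 1 (median 3.04). Compared with CD90+ controls 5 were higher and 9 lower (median -0.66), where 38.0% of all genes tested were higher and 39.6% lower. DNMT3B, a DNA methyltransferase, was 8.21-fold higher (126 ± 1.47 against 15.4 ± 1.46 CPM), LIN28A, an RNA-binding protein that blocks let-7 maturation, 84.9-fold higher (19.4 ± 2.16 against 0.228 ± 0.0863 CPM), and DPPA4 4.96-fold higher. TDGF1 had 1 count in CD38+ cells and was not called, though it was with DESeq2 (adjusted p = 0.048) and without CD38+ replicate 1 or GATA2 overexpression replicate 1 (edgeR, adjusted p = 0.046 and 0.018). Of 14 trophoblast and gonadotropin genes tested, 12 were higher and 1 lower (median 3.47). CGA, the alpha subunit of gonadotropins (ENSG00000135346.8, chr6:87085498-87095406, minus strand), was at 109.9, 90.2 and 91.9 CPM with GATA2 overexpression, 2.89, 2.67 and 2.44 CPM in CD90+ controls and 6.67, 8.31 and 7.13 CPM in CD38+ cells (13.2-fold higher than in CD38+ cells, log2 fold change 3.72, SE 0.089, adjusted p = 1.64e-16). Against CD90+ controls CGA was 36.5-fold higher (adjusted p = 2.45e-17). The list as a whole was split there, with 5 members higher and 5 lower (median -0.225). Of all genes tested, 38.0% were higher and 39.6% lower than in CD90+ controls. CGB8 was 129.8-fold higher (9.41 ± 0.557 against 0.0699 ± 0.0816 CPM), and CGB7 had 0 counts in CD38+ cells and 1.86 ± 0.127 CPM, at least 71.4-fold higher. Reads of the CGB genes may be shared among near-identical copies. CYP19A1, the aromatase gene, was 4.25-fold lower (0.784 ± 0.413 against 3.33 ± 0.218 CPM).

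Imprinted genes were higher in 12 of 16 cases and lower in 2 (median 1.20). Compared with CD90+ controls 8 were higher and 6 lower (median 0.21), where 38.0% of all genes tested were higher and 39.6% lower. DLK1, a membrane protein of fetal tissues and some progenitors, was at 552, 570.2 and 556 CPM against 74.7, 72.3 and 75.2 CPM (7.55-fold higher). MEST was 5.78-fold higher (773 ± 7.34 against 134 ± 2.77 CPM), IGF2 36.2-fold higher (46.7 ± 2.27 against 1.29 ± 0.135 CPM) and NNAT 9.87-fold higher. GRB10, an adaptor that restrains growth, was 1.68-fold lower (74.7 ± 3.79 against 126 ± 2.75 CPM).

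**Figure D4:**
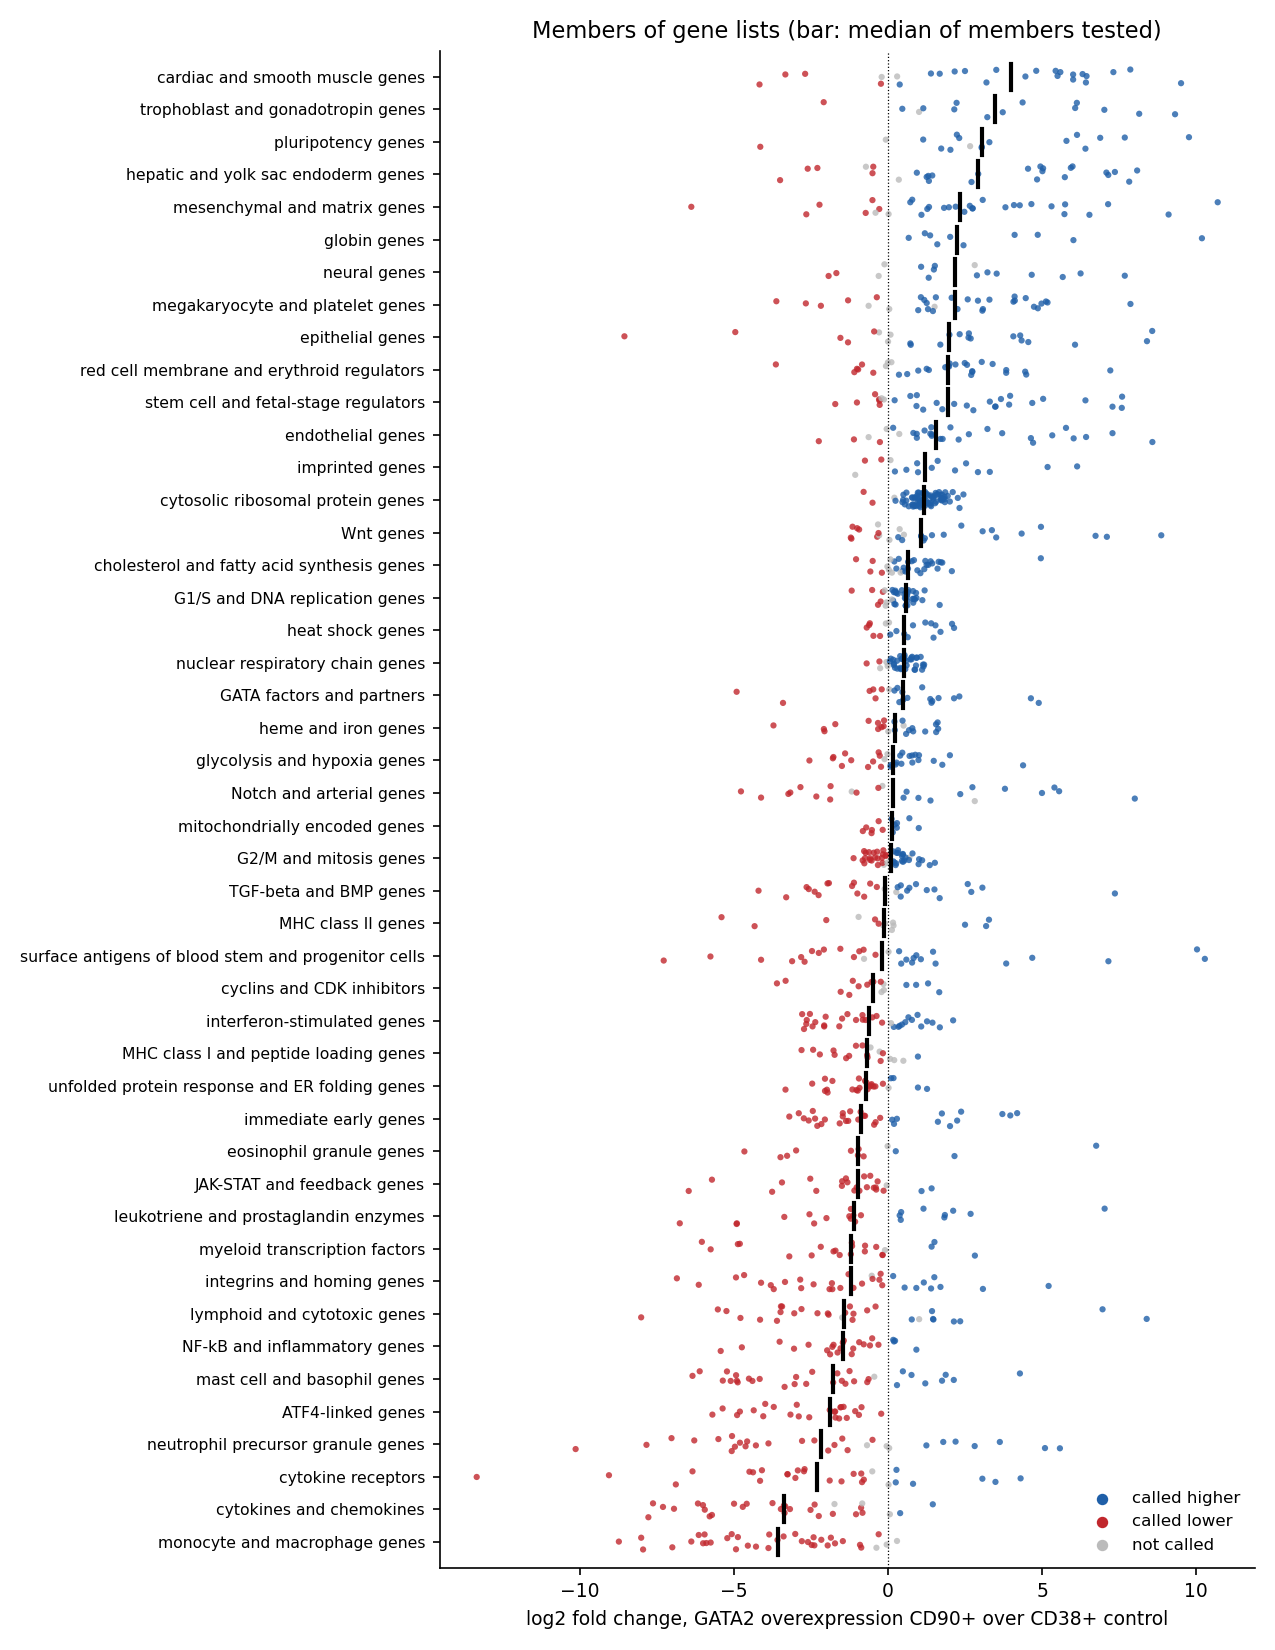
Log2 fold change (horizontal axis) of the members tested of gene lists (rows, ordered by median). Blue members were called higher, red lower and grey not called, and bars mark medians, which run from -3.59 for monocyte and macrophage genes to 3.99 for cardiac and smooth muscle genes.

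The lists placed side by side for the CD90+ controls show what the controls gave against the same CD38+ cells. Both comparisons share the CD38+ libraries, so their likeness is not a result. Against CD38+ cells the median of mast cell and basophil genes was -2.62 in CD90+ controls and -1.78 with GATA2 overexpression, and that of ATF4-linked genes -1.22 and -1.89. For monocyte and macrophage genes the medians were -0.56 and -3.59, for cytokine receptors -0.32 and -2.30, and for NF-kB and inflammatory genes 0.009 and -1.45. For G1/S genes they were -0.11 and 0.57, for ribosomal protein genes 0.25 and 1.18, and for respiratory chain genes -0.28 and 0.52. The direct comparison of GATA2 overexpression with CD90+ controls called 21 of 28 cytokine receptors lower, 41 of 43 G1/S genes higher, 77 of 79 ribosomal protein genes higher and 40 of 41 respiratory chain genes higher, where 38.0% of all genes tested were higher and 39.6% lower. CD90+ controls against CD38+ cells called 80.4% of genes.

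**Figure D5:**
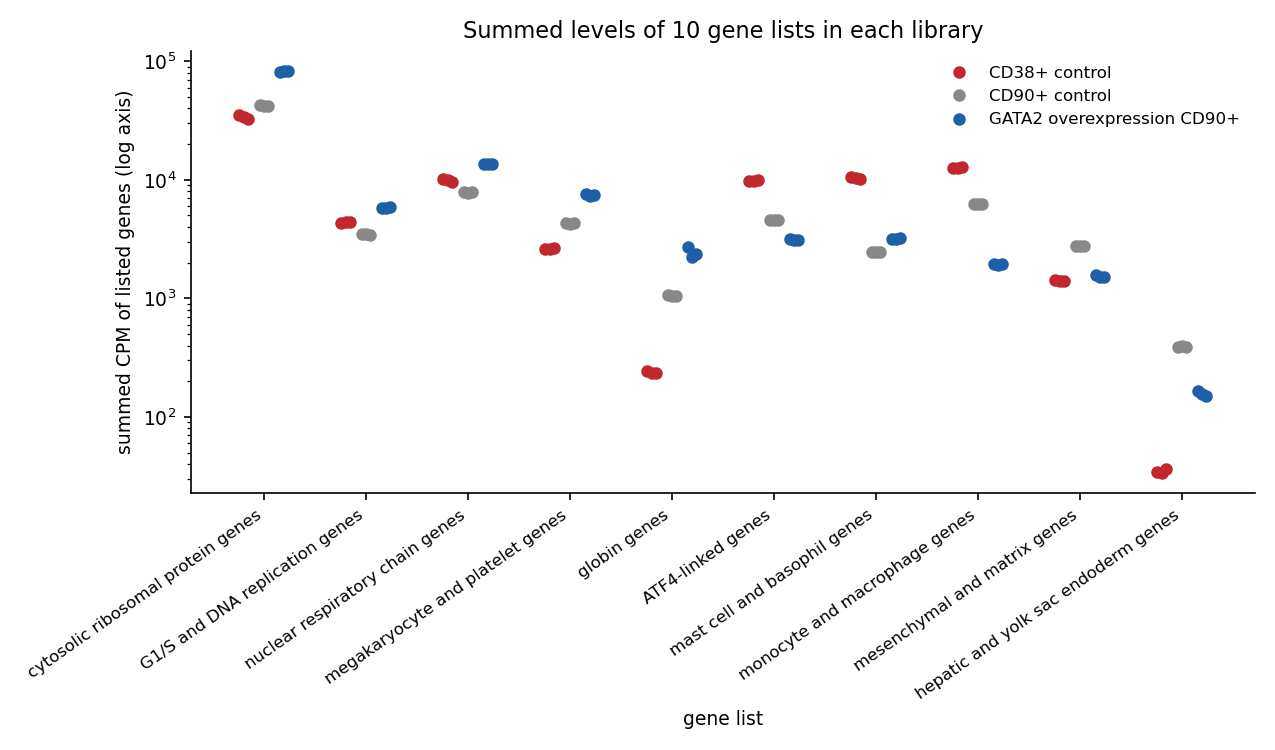
Summed CPM (log axis) of 10 gene lists in each of the 9 libraries, coloured by group. Summed levels of ribosomal protein genes reach 81783 to 82926 CPM with GATA2 overexpression, and those of monocyte and macrophage genes are 12581 to 12761 CPM in CD38+ cells and 1898 to 1952 CPM with GATA2 overexpression.

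Few genes could be bounded as alike in both groups. For 1603 of the genes tested (9.88%) the 95% interval of the fold change allowed neither group to be more than 25% higher than the other. TNFRSF1A, GAPDH, SERPINB1, MS4A3, CXCL3, PDIA4, JAK2 and GFI1, given above, were among genes not called. With scaling by library size only or by upper-quartile factors, TNFRSF1A, GAPDH, SERPINB1, MS4A3, CXCL3 and PDIA4 were called higher. So were ACO1, BLVRB, CD69, RFC4 and RPL17. Of 14898 protein-coding genes 6570 were higher and 5989 lower, beside 144 of 379 intergenic long non-coding RNAs higher and 132 lower and 165 of 475 antisense genes higher and 154 lower.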

How the data were processed

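The authors deposited raw counts, which are whole reads assigned to each of 21229 gene symbols in 9 libraries. Alignment and counting tools named in the submitters' processing notes are HISAT2 and featureCounts, with the hg38 build. The sources used here do not give versions, options, gene annotation or strand handling, so overlapping and near-identical genes are uncertain. Libraries were grouped by labelled genotype and surface marker. Replicates differed by more than sampling noise (chi-square per degree of freedom 3.96 to 7.84), so none was counted as a duplicate.

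After filterByExpr (at least 10 counts, 15 in total), edgeR 4.0.16 in R 4.3.3 fitted the quasi-likelihood model with TMM factors on group means of all 9 libraries, with Benjamini-Hochberg adjustment. Standard errors derive from the log2 fold change and F. Floors of 3 counts over a group and exact binomial (Clopper-Pearson) 95% intervals cover counting error only. The procedure was tested on simulated data in which few genes changed, so scaling where most genes differ was not tested.

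The members and the 47 gene lists were chosen with earlier results of these data known. Of 1276 list entries, 1251 matched the table directly and 2 through a synonym, and 23 were not analysed here. Named genes were 12 fixed genes, the 10 largest rises and 10 largest falls (called, libraries not overlapping, mean of at least 5 CPM in the higher group) and, per list, up to 4 members with the lowest adjusted p in its main direction, 2 in the other and 2 not called. Some of these genes and 1 list are not reported here. C1QA, CPA3 and ATF4 fall outside this rule and were chosen after their values were seen. Positions are from GENCODE release 29.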

Additional observations from a re-analysis of the deposited data

How the results depend on the processing

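Every count of calls and every list's count stayed within 1.5 times its value under RLE, upper-quartile or no scaling factors, other filters, DESeq2 1.42.0, limma voom (limma 3.58.1), a fit of the 6 libraries alone and leaving out each library. Genes called numbered 13443 with DESeq2, 13441 with voom, 12676 with the 6 libraries, 12151 at a minimum of 1 CPM in 3 libraries and 14236 without the filter, and 13280 to 13411 when 1 library was left out. With the replicate number as a replicate block 13347 were called. Deviations of same-numbered libraries of the groups compared had correlations of -0.0032, 0.0038 and 0.026, against -0.025 to 0.021 for other pairs. Values this small cannot show whether the numbers mark a shared culture or batch, and CD90+ controls were not checked.

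Medians of 44 of the 47 lists kept their sign under every alternative, and those of MHC class II, Notch and arterial, and TGF-beta and BMP genes did not. All 236 named genes that were called stayed called in the same direction under every alternative that tested them. CIITA and HLA-DPB1 were tested under 14 of the 15 alternatives. Of 32 named genes not called, 18 were called under at least 1 alternative, 11 of them under a scaling alternative, and 6 of the 18 with the opposite sign. With library size only the log2 fold change was 0.16 for BLVRB, 0.14 for GAPDH, 0.12 for MS4A3 and 0.11 for RFC4, and with upper-quartile factors it was 0.14, 0.13, 0.10 and 0.10. Both scalings move all genes up by 0.15 to 0.16. Leaving out 1 library, CD69 ran from -0.081 (without GATA2 overexpression replicate 1) to 0.074 (without replicate 2) and HLA-E from -0.65 (without GATA2 overexpression replicate 3) to 0.39 (without replicate 2). Depth limits genes near the floor, about 0.026 CPM in either group, where folds are bounds or have wide intervals.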
